A study of Mus musculus with 11 samples.

Results

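The glycolysis genes described here are 10 genes of glucose breakdown, namely Slc2a3, Hk1, Hk2, Pfkl, Pfkfb3, Aldoa, Pgk1, Eno1, Pkm and Ldha. They were chosen by symbol, with earlier results of these data known. The count matrices hold them in 11 of 32285 gene rows, because Aldoa has a second row. The second Aldoa row held 150 UMIs against 311577 in the first, and only the first was used. A UMI, or unique molecular identifier, marks 1 captured RNA molecule.

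Glycolysis turns glucose into pyruvate, which lactate dehydrogenase can reduce to lactate, and it yields ATP without oxygen. Glucose enters through transporters, is phosphorylated by hexokinase and is committed to the pathway by phosphofructokinase, whereas the enzymes from aldolase onward split the sugar and recover the energy. In the brain, loss of blood flow deprives cells of glucose and oxygen, and many genes of the pathway are known targets of the hypoxia-inducible factors. Microglial cells, the resident macrophages of the brain, are known to raise glycolysis upon activation.

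Single-cell RNA sequencing with a 3′ kit was performed on the right brain of 11 mice, with 1 library per mouse. Focal ischemia was produced by 1 h of middle cerebral artery occlusion followed by reperfusion (MCAO/R), and sham-operated mice served as controls. Several reperfusion times were used in the study, and which of them applied to the sequenced mice is not clear from the sources used here, where a limit of the knockout data to an early time of 1 h is mentioned without saying from when it was counted. The wild-type (WT) mice were male C57BL/6 mice, for which the methods give an age of 8 to 10 weeks. The Lrg1-/- mice are a conventional knockout on a C57BL/6N background, with the coding sequence of leucine-rich alpha-2-glycoprotein 1 deleted in every cell, and the methods give 3 months for their age. The sham + WT group had 3 mice, numbered 1, 2 and 3, and MCAO/R + WT had 2, numbered 1 and 2. Both sham + Lrg1-/- and MCAO/R + Lrg1-/- had 3, numbered 1, 2 and 5 in either group, and these label numbers are used as replicate numbers below. The 4 groups allow the response to MCAO/R to be read in each genotype, the genotypes to be compared with and without MCAO/R, and the difference of the responses to be tested as an interaction. These comparisons share samples and are therefore not independent of each other.

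All matched members with a promoter sequence carry the core of the hypoxia response element at least once. Windows of 300 bases, 250 before and 50 after the transcription start, were taken from RefSeq on GRCm38.p6, and 9 of the 10 members were matched, with 17 windows. The core searched was ACGTG or GCGTG on either strand (read as CACGT or CACGC on the printed strand), and CACGTG counts as 2 overlapping matches. It was found in 14 of these 17 windows (82.4%) and in 43.8% of all 32851 windows of the table. The windows of 4 genes are printed with the matches in capitals, Ldha and Pgk1 for the later steps and Pfkfb3 and Hk2 for the early steps. Between the genotypes after MCAO/R, the calls of Ldha and Pgk1 were all higher and those of Pfkfb3 and Hk2 all lower in Lrg1-/-. The Ldha window on the plus strand is chr7:46845554-46845853, and its 7 matches place it among the 1.66% of all windows with 5 or more. The Pgk1 window, also on the plus strand, is chrX:106186850-106187149 with 2 matches. The Pfkfb3 window is chr2:11502041-11502340 on the minus strand with 4 matches, while the other window of this gene has 1. The Hk2 window is chr6:82774405-82774704 on the minus strand with 2 matches.
Ldha: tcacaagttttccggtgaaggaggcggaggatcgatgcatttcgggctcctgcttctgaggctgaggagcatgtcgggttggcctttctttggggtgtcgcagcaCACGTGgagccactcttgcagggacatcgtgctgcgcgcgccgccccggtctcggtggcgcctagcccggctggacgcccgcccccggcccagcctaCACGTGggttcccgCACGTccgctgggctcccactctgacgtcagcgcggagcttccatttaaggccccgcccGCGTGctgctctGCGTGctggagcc
Pgk1: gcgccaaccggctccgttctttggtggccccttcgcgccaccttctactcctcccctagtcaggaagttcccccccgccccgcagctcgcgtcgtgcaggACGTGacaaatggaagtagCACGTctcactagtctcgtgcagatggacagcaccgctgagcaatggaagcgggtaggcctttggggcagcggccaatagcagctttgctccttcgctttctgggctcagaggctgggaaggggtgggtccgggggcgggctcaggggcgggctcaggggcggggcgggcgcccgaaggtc
Pfkfb3: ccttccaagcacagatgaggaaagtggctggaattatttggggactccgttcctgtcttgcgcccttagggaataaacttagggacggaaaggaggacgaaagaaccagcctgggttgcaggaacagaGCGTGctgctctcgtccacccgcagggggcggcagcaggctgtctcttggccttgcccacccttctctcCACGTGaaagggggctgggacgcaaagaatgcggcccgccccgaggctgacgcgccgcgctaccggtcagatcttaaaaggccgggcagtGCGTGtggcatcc
Hk2: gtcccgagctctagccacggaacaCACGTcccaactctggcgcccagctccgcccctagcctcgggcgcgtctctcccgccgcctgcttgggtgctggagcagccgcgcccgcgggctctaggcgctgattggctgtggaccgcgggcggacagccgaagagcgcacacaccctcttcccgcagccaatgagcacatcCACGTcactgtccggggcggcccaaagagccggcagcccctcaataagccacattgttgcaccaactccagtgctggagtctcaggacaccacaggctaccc
A second Ldha window holds 2 matches, the windows of Hk1 hold 0 and 5, and no window of Pfkl, Aldoa, Eno1 or Pkm holds more than 2. Such matches describe the sequence only. Slc2a3 was not matched.

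Lrg1 itself was read first as a check of the genotype. It was counted in the 11 cell types compared below, and not in unnamed cells, neutrophils or the other cells left out. No Lrg1 UMI was found there in any of the 6 Lrg1-/- libraries, whose cells of these types summed to between 19096475 and 115228466 UMIs. The sham + WT libraries held 174, 609 and 239 Lrg1 UMIs in these types and the MCAO/R + WT libraries 16164 and 15047. Although red blood cells were lysed during preparation, haemoglobin RNA also separated the genotypes, with 0.0227 to 0.0406% of UMIs in the WT libraries and 3.44 to 8.99% in the Lrg1-/- libraries. Of 155804 barcodes, 132437 passed the limits on genes, UMIs and mitochondrial RNA, and 124491 cells remained after removal of likely doublets. Total UMIs per library ranged from 37159497 to 171813031, and median UMIs per cell passing the limits from 3190 to 11504. These medians differed between the groups, with 9611 and 11504 in MCAO/R + WT and 3190, 3533 and 6456.5 in MCAO/R + Lrg1-/-. They were 6064, 9936 and 9943 in sham + WT and 4674.5, 5488 and 7911 in sham + Lrg1-/-. Between any 2 libraries at most 146 barcodes were shared. Of 25 clusters, 2 with 28487 cells (22.9%) held markers of several cell types at once, with no type standing clear of the next, and stayed unnamed. Their share was highest in MCAO/R + Lrg1-/- replicates 1 (51.7%) and 5 (50.2%). By group it was 38.5% in MCAO/R + Lrg1-/-, 24.7% in sham + Lrg1-/-, 4.20% in MCAO/R + WT and 6.99% in sham + WT. Cells were thus left out unequally between the genotypes. In all, 11 cell types had at least 20 cells in all 11 libraries. The cluster called T cells also carried genes of NK and B cells. The cluster called pericytes also held all endothelial markers and was named through its leading genes. The part of endothelial RNA in the pericyte levels below was not tested. Levels are given as CPM, the UMIs of a gene per 1000000 UMIs of the cell type with TMM adjustment. A 3′ kit counts 1 tag per molecule, so that levels of different genes were compared without scaling for length.

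UMIs of all 10 genes were counted in all 11 cell types, and the isoforms at the entry of the pathway differed between them. Hk2, the inducible hexokinase (ENSMUSG00000000628, chr6:82725025-82774454), was highest in microglial cells with a median of 150.1 CPM over the 11 libraries (lowest 109, highest 182). Border-associated macrophages followed with a median of 76.8 CPM (42.5 to 127), and endothelial cells were lowest with 5.003 CPM (2.42 to 7.09). Hk1, the hexokinase of most resting cells (ENSMUSG00000037012, chr10:62268855-62379908), had the opposite order. Its median was 76.6 CPM in endothelial cells (58.2 to 105.7), 76.0 CPM in choroid plexus epithelial cells (57.4 to 104.4) and 17.4 CPM in microglial cells (13.4 to 21.5). The ranges of Hk1 in the first 2 of these types overlapped, and neither overlapped that of microglial cells.

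Pfkfb3, which makes the activator of phosphofructokinase fructose 2,6-bisphosphate (ENSMUSG00000026773, chr2:11471433-11554077), followed Hk2 rather than Hk1. Its median was 149 CPM in microglial cells, 59.2 CPM in T cells, 51.2 CPM in border-associated macrophages, 46.1 CPM in astrocytes and 10.4 CPM in choroid plexus epithelial cells. Pfkl, the liver-type subunit of phosphofructokinase itself (ENSMUSG00000020277, chr10:77986947-78010083), was instead highest in endothelial cells (78.6 CPM), pericytes (74.5 CPM) and choroid plexus epithelial cells (71.7 CPM) and lowest in oligodendrocytes (18.3 CPM). Slc2a3, the high-affinity glucose transporter GLUT3 (ENSMUSG00000003153, chr6:122727809-122801640), had medians of 33.5 CPM in pericytes, 24.96 CPM in T cells, 21.6 CPM in vascular smooth muscle cells, 18.8 CPM in neuroblasts and neurons and 13.1 CPM in microglial cells. It was lowest in endothelial cells (1.41 CPM) and choroid plexus epithelial cells (1.26 CPM). In neutrophils, present with 20 or more cells in 5 libraries only, Slc2a3 ranged from 66.6 to 333 CPM.

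Some of the lowest of these levels did not clearly exceed an estimated background. The 9 microglial markers were also counted in the sums of the other cell types, at 3.31 to 11.3% of their microglial level in endothelial cells and at 4.93 to 32.9% in choroid plexus epithelial cells. The level of a gene that this share of microglial RNA would hold was set beside the measured level, both in CPM without TMM adjustment. Endothelial Hk2 was below it in all 11 libraries (median 4.85 CPM against 9.33 CPM), and so were Hk2 (9.25 against 18.1 CPM) and Pfkfb3 (10.2 against 25.1 CPM) in choroid plexus epithelial cells, where Slc2a3 was above it in 1 library only (1.20 against 2.025 CPM). These 4 levels were not told apart from background and are not read as expression. Where the estimate exceeds the measured level, it does not give the size of the microglial part. Hk2 was above it in 5 of the 11 libraries in pericytes and in 6 in neuroblasts and neurons. In border-associated macrophages, which are known to use some of the same markers themselves, the share was 34.5 to 62.8% and does not measure background.

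The genes from aldolase to lactate were highest in choroid plexus epithelial cells, with the exception of Ldha. Aldoa, which splits fructose 1,6-bisphosphate (ENSMUSG00000030695, chr7:126795234-126800751), had a median of 896 CPM there and 96.2 CPM in neuroblasts and neurons, where it was lowest. Pgk1, the first enzyme of the pathway to yield ATP (ENSMUSG00000062070, chrX:106187100-106203699), had a median of 461 CPM in choroid plexus epithelial cells, 328 CPM in ciliated ependymal cells and 47.1 CPM in microglial cells. Eno1, the widely expressed enolase (ENSMUSG00000063524, chr4:150236721-150248879), had medians of 506 CPM in choroid plexus epithelial cells, 184 CPM in astrocytes and 55.3 CPM in oligodendrocytes. Its near-identical copy Eno1b was counted with 1805 UMIs against 150596 for Eno1, so that a small part of either count may belong to the other.

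Pkm, the pyruvate kinase whose isoforms are not told apart by 3′ tags (ENSMUSG00000032294, chr9:59656368-59679375), had medians of 702 CPM in choroid plexus epithelial cells and 163 CPM in microglial cells. Ldha, the lactate dehydrogenase subunit that favours lactate (ENSMUSG00000063229, chr7:46841475-46855627), had medians of 271 CPM in choroid plexus epithelial cells, 246 CPM in pericytes and 47.8 CPM in oligodendrocytes. In endothelial cells it ranged from 264.7 to 536 CPM, which overlapped the ranges of the choroid plexus epithelial cells and pericytes.

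**Figure D1:**
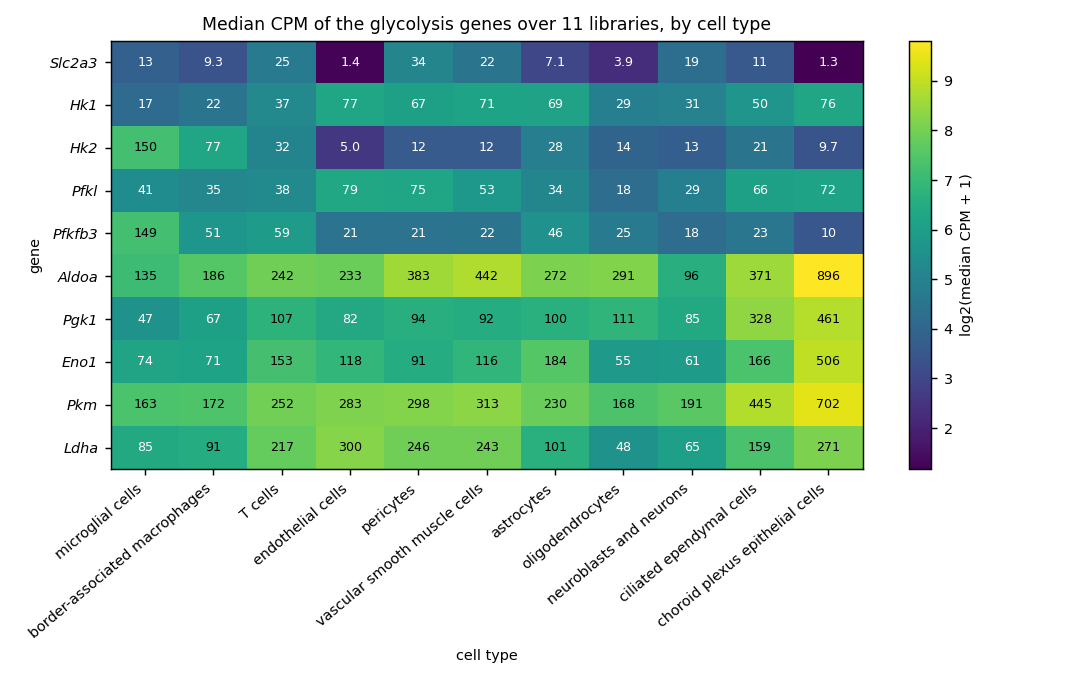
Median CPM (TMM-adjusted) of the 10 glycolysis genes over 11 libraries in each of 11 cell types, printed in each field and coloured as log2(median CPM + 1). Hk2 and Pfkfb3 are brightest in microglial cells (150 and 149 CPM), whereas Aldoa, Pgk1, Eno1 and Pkm are brightest in choroid plexus epithelial cells.

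The share of Hk2 among the UMIs of both hexokinases gives the switch of isoform in a single number that does not depend on the scaling of the library. It was highest in microglial cells, with a lowest value of 85.0%, a median of 89.9% and a highest value of 93.0% over the 11 libraries. Border-associated macrophages had a median of 76.7% (69.8 to 91.0%) and T cells of 45.8% (38.5 to 64.9%), while endothelial cells had the lowest median of 4.58% (3.06 to 10.9%). The ranges of microglial cells and border-associated macrophages overlapped, and that of endothelial cells lay below both. Within a cell type the groups were compared by an exact permutation test. With 3 against 2 or 3 against 3 libraries it cannot give a p under 0.05, so that no comparison could pass. In microglial cells the share after MCAO/R was 87.0% ± 2.56 (SD, n = 3) for Lrg1-/- and 92.3% ± 0.931 (SD, n = 2) for WT, a difference of -5.29 percentage points with a two-sided exact permutation p of 0.2, the smallest that 3 against 2 libraries can give. At a limit of 10% mitochondrial UMIs this difference was -8.214, where a cluster of 3444 cells led by Lilr4b and Ifi207 stayed unnamed and was no longer counted with the microglial cells. In endothelial cells of sham-operated mice the share was 9.86% ± 1.03 (SD, n = 3) in Lrg1-/- and 3.73% ± 0.624 (SD, n = 3) in WT, with no overlap and an exact permutation p of 0.1, which is likewise the smallest possible for 3 against 3. This difference of 6.14 percentage points depended on how cells were chosen, with 2.56 when doublets were kept, 11.5 at a limit of 10% mitochondrial UMIs, where a cluster of 6325 cells led by Myl9 and Mgp was counted as endothelial, and 11.4 at Leiden resolution 0.3. As endothelial Hk2 was below the estimated background, these shares are not read as a difference of endothelial expression. Over all 44 comparisons of this share the smallest adjusted p of this test was 0.463, and at these group sizes it cannot tell whether the shares differ.

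**Figure D2:**
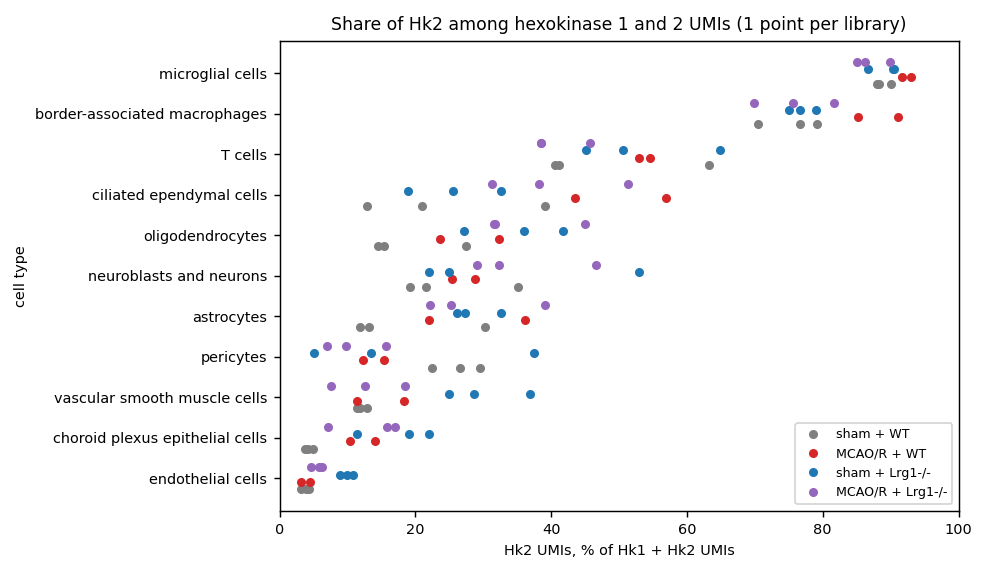
Hk2 UMIs as a percentage of Hk1 and Hk2 UMIs (x axis) in each of 11 cell types (y axis), with 1 point per library coloured by group. All 11 microglial points lie between 85.0 and 93.0%, and all 11 endothelial points between 3.06 and 10.9%.

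The first comparison asked how microglial cells changed after MCAO/R in WT mice. Slc2a3, Pfkfb3 and Pkm rose, and the other 7 genes were not called. Slc2a3 was at 11.2, 9.68 and 13.1 CPM in the 3 sham + WT libraries and at 65.9 and 111.9 CPM in the 2 MCAO/R + WT libraries. Both MCAO/R values were far above all sham values, with a log2 fold change of 2.97 ± 0.20 (SE) and an adjusted p of 1.2e-06 in edgeR's quasi-likelihood test. Pfkfb3 was at 128, 135 and 128 CPM in sham + WT and at 283 and 247 CPM in MCAO/R + WT, again without overlap (log2 fold change 1.03 ± 0.12, adjusted p = 8.04e-05). Pkm rose as well (log2 fold change 1.20 ± 0.32, adjusted p = 0.0179), but its MCAO/R values of 506 and 173 CPM stood far apart, and the lower was close to the highest of the sham values of 163, 148 and 133 CPM. A gene was called where the adjusted p was under 0.05 and the fold change exceeded 0.25 in either direction on the natural-log scale. By this rule these 3 of the 10 genes were called, all higher, where 21.7% of the 18361 genes tested in microglial cells were called.

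The same difference between the 2 MCAO/R + WT mice ran through the later steps. Pgk1 was at 97.3 CPM in MCAO/R + WT replicate 1 and at 38.4 CPM in replicate 2, against 46.7, 47.1 and 37.8 CPM in sham + WT. Eno1 was at 130 and 77.8 CPM against 73.7, 73.6 and 73.7 CPM. For Ldha the values were 197 and 86.1 CPM against 85.2, 84.1 and 78.8 CPM, and for Aldoa 208 and 141 CPM against 135, 135 and 119 CPM. In each of these genes replicate 1 lay well above the sham libraries and replicate 2 at or slightly above their range, and none was called in this comparison. Hk1, Hk2 and Pfkl were not called either, with Hk2 at 178 and 182 CPM after MCAO/R and at 176, 150.1 and 144 CPM in sham.

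In Lrg1-/- mice the microglial response to MCAO/R was carried by the later steps. Each of the 5 genes from aldolase to lactate was higher in every MCAO/R library than in every sham library. The share of all genes that separated in this way was not counted. By the call, 6 of the 10 genes were higher and none lower, where 36% of all genes tested were called. Pkm was at 120, 116 and 117 CPM in the sham + Lrg1-/- libraries and at 551, 891 and 532 CPM in the MCAO/R + Lrg1-/- libraries (log2 fold change 2.48 ± 0.31, adjusted p = 0.000108). Pgk1 went from 53.5, 44.9 and 29.9 CPM to 141, 190.1 and 123 CPM (log2 fold change 1.80 ± 0.30, adjusted p = 0.000542). For Ldha the values were 64.8, 67.3 and 71.2 CPM in sham and 210, 296 and 181 CPM after MCAO/R (log2 fold change 1.76 ± 0.25, adjusted p = 0.000215). The groups of each of these genes did not overlap.

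Eno1 rose in the Lrg1-/- microglial cells by 1.53 ± 0.17 on the log2 scale (adjusted p = 6.1e-05), from 49.5, 51.1 and 57.9 CPM to 147, 172 and 138 CPM. Aldoa rose by 1.17 ± 0.17 (adjusted p = 0.000256), from 98.7, 102.1 and 119 CPM to 193, 295 and 230.3 CPM. Slc2a3 rose as well, from 7.39, 7.03 and 7.57 CPM to 20.3, 18.8 and 19.2 CPM (log2 fold change 1.41 ± 0.21, adjusted p = 0.000294). The 3 MCAO/R values of Slc2a3 lay close together, above all sham values and below both MCAO/R + WT values. Pfkfb3 was at 149, 124 and 133 CPM in sham and at 161, 188 and 170 CPM after MCAO/R, and its log2 fold change of 0.36 (adjusted p = 0.0259) missed the fold limit.

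Compared directly after MCAO/R, Lrg1-/- microglial cells had less RNA of 3 of the 5 early-step genes (Slc2a3, Pfkfb3 and Hk2) and more of 2 of the 5 later ones (Pgk1 and Eno1). Slc2a3 was lower by 2.20 ± 0.19 on the log2 scale (log2 fold change -2.20, adjusted p = 1.92e-05). Pfkfb3 was lower too (log2 fold change -0.61 ± 0.12, adjusted p = 0.00419), and so was Hk2, with 141, 115 and 109 CPM in MCAO/R + Lrg1-/- against 178 and 182 CPM in MCAO/R + WT (log2 fold change -0.57 ± 0.14, adjusted p = 0.0124). The groups did not overlap for any of these 3 genes. In the other direction, Pgk1 (log2 fold change 1.16 ± 0.33, adjusted p = 0.0242) and Eno1 (0.55 ± 0.18, adjusted p = 0.0476) were higher. Pkm and Ldha had log2 fold changes of 0.96 (adjusted p = 0.0609) and 0.70 (adjusted p = 0.0869) and did not pass. Hk1, at 15.9, 20.3 and 17.4 CPM in MCAO/R + Lrg1-/- against 13.4 and 16.6 CPM, was not called (0.27, adjusted p = 0.267). Thus 2 genes were higher and 3 lower, where 20.9% of all genes tested were called. Without MCAO/R + WT replicate 2, the calls of Hk2 (log2 fold change -0.56, adjusted p = 0.057), Pgk1 (0.63, adjusted p = 0.168) and Eno1 (0.23, adjusted p = 0.416) were lost, whereas those of Slc2a3 (-1.77, adjusted p = 3.82e-05) and Pfkfb3 (-0.71, adjusted p = 0.00891) were not.

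Among sham-operated mice, 2 of the 10 genes were called in microglial cells, both lower in Lrg1-/-, where 23.4% of all genes tested were called. These were Slc2a3 (log2 fold change -0.63 ± 0.21, adjusted p = 0.0465) and Pfkl, with 34.9, 36.9 and 31.4 CPM against 52.0, 51.2 and 46.0 CPM in WT (-0.53 ± 0.14, adjusted p = 0.0145). The difference of the 2 responses to MCAO/R, tested as an interaction, was called for 3 genes, where 8.45% of all genes tested were called. The response of Slc2a3 was smaller in Lrg1-/- by 1.56 ± 0.29 on the log2 scale (interaction -1.56, adjusted p = 0.0103), and that of Pfkfb3 by 0.67 (interaction -0.67 ± 0.17, adjusted p = 0.031). The response of Eno1 was larger in Lrg1-/- (interaction 1.04 ± 0.25, adjusted p = 0.0264), a call that was lost without MCAO/R + WT replicate 2 (adjusted p = 0.0587). With each of the 11 libraries left out in turn, the interaction of Slc2a3 kept its call throughout, whereas that of Pfkfb3 was lost in 5 cases (sham + Lrg1-/- replicate 1, MCAO/R + WT replicate 1 and each sham + WT library, adjusted p of 0.0539 to 0.0773). That of Eno1 was lost in 7 (sham + Lrg1-/- replicates 1 and 2, MCAO/R + Lrg1-/- replicate 2, MCAO/R + WT replicate 2 and each sham + WT library, adjusted p of 0.0529 to 0.0727).

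**Figure D3:**
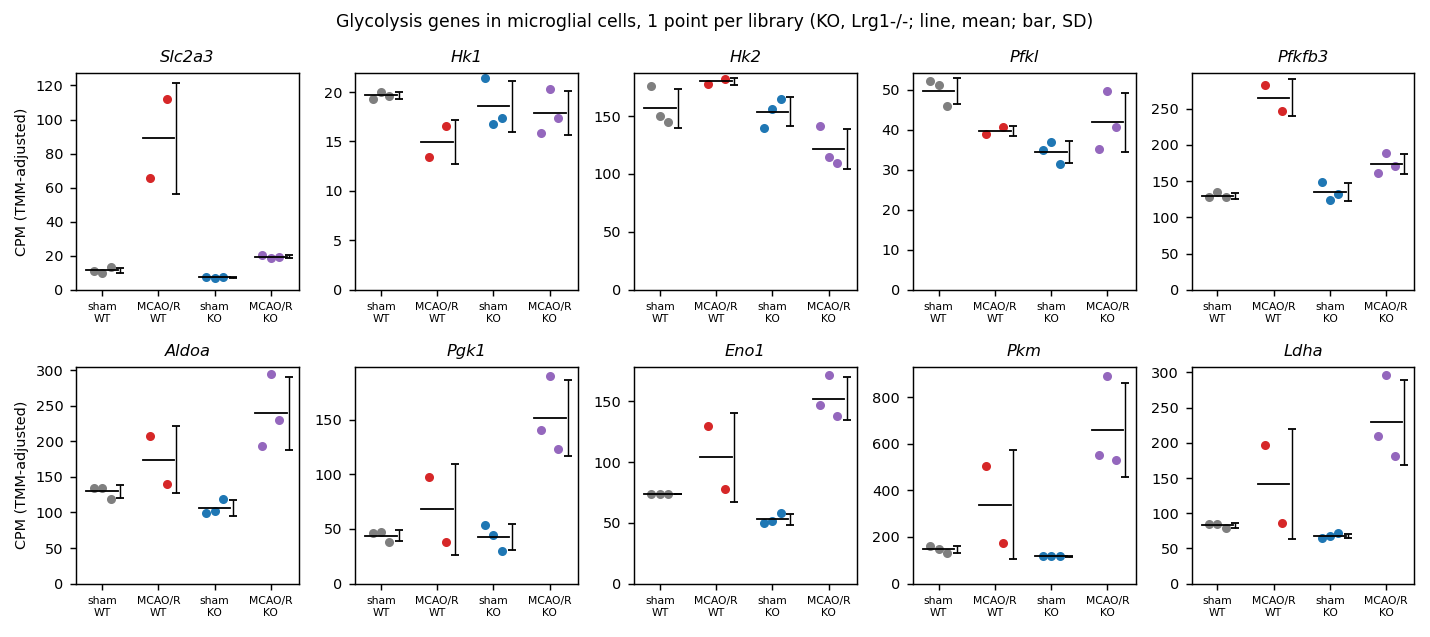
Levels of the 10 glycolysis genes in microglial cells (y axis, TMM-adjusted CPM) in the 4 groups (x axis; KO, Lrg1-/-), with 1 point per library, the mean as a line and the SD as a bar. For Slc2a3 and Pfkfb3 both MCAO/R + WT points lie above all other points, whereas for Pgk1, Eno1, Pkm and Ldha the 2 MCAO/R + WT points lie far apart.

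Several other measures moved with the groups in the microglial sums, and their part in the differences was not tested. The summed level of the 9 microglial markers was 15378 to 16756 CPM in sham + WT, 9229 to 9697 CPM in MCAO/R + WT, 12502 to 14439 CPM in sham + Lrg1-/- and 12409 to 14693 CPM in MCAO/R + Lrg1-/-. The markers of monocytes and macrophages summed to 34.5 to 38.2 CPM, 330 to 421 CPM, 25.4 to 35.6 CPM and 151 to 318 CPM in the same order. Neutrophil markers, which matter here because the level of Slc2a3 was high in neutrophils, summed to 194 to 233 CPM in sham + WT, 128 to 246 CPM in MCAO/R + WT, 228 to 267 CPM in sham + Lrg1-/- and 87.5 to 411 CPM in MCAO/R + Lrg1-/-. Cells named neutrophils numbered 51 and 52 in the MCAO/R + WT libraries and 13, 295 and 1320 in the MCAO/R + Lrg1-/- libraries. Immediate early genes, which the dissociation of tissue is known to induce, summed to 33618 to 38343 CPM in MCAO/R + WT and to 13909 to 18137 CPM in MCAO/R + Lrg1-/-. Free haemoglobin RNA reached 9081 to 14575 CPM in MCAO/R + Lrg1-/- against 15.1 to 19.5 CPM in MCAO/R + WT. Leaving haemoglobin UMIs out of the sums left the same 45 pairs of glycolysis gene and cell type called between the genotypes after MCAO/R over all 11 cell types. This took out no other RNA of red blood cells.

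The microglial cells fell into 4 clusters (numbered 1, 3, 6 and 9), and their mix differed between the libraries. Cluster 3 held 54.4 to 74.7% of the microglial cells of the sham + WT libraries, 3.20 to 5.97% of those of the sham + Lrg1-/- libraries and at most 1.05% of those of the MCAO/R libraries. Cluster 1 held 71.6 to 82.1% of the microglial cells in sham + Lrg1-/- and 24.3 to 37.9% in sham + WT, so that the sham groups lay mostly in different clusters, and the part of this mix in the sham comparison and the interaction was not tested. Cluster 9, led by Lilr4b, Ifi207, Slc16a10 and Adam8, held 41.0% of the microglial cells in MCAO/R + WT replicate 1 but 4.70% in replicate 2. It held 32.8%, 57.4% and 22.4% in the MCAO/R + Lrg1-/- libraries and under 1% in each sham library. The mix also differed between the MCAO/R groups. Cluster 1 held 48.3 and 78.7% in MCAO/R + WT but 34.3, 3.55 and 5.72% in MCAO/R + Lrg1-/-, and cluster 6 held 9.90 and 15.6% against 32.8, 39.1 and 71.9%. The part of this mix in the comparison of the genotypes after MCAO/R was not tested.

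Within single clusters the lower Slc2a3 and Pfkfb3 of MCAO/R + Lrg1-/- were still seen. Slc2a3 per 1000000 UMIs of the cluster ranged from 21.8 to 33.4 against 106 to 122 in MCAO/R + WT in cluster 1, from 11.3 to 19.4 against 41.6 to 61.5 in cluster 6 and from 17.0 to 24.5 against 28.4 to 47.8 in cluster 9. Pfkfb3 ranged from 169 to 183 against 232 to 242 in cluster 1, from 151 to 184 against 201 to 216 in cluster 6 and from 175 to 189 against 285 to 292 in cluster 9. The groups did not overlap in any of these 6 comparisons. How large a share of all genes separated in the same way was not counted. Pkm differed between the clusters in both genotypes, with 139 to 187 CPM in cluster 1, 230 to 405 CPM in cluster 6 and 373 to 696 CPM in cluster 9 of MCAO/R + WT. In sham + WT it was at 150.3 to 174 CPM in cluster 1 and 213 to 251 CPM in cluster 6, so that the ranges of sham and MCAO/R overlapped within both clusters, and in cluster 3 it was at 119 to 140 CPM against 90.0 to 119.7 CPM after MCAO/R. Cluster 9 held under 1% of the microglial cells of each sham library, and the part of this mix in the rise of Pkm was not tested. In MCAO/R + Lrg1-/- it ranged from 245 to 296 CPM, 383 to 498 CPM and 819 to 1023 CPM, which was above MCAO/R + WT in clusters 1 and 9 and overlapped it in cluster 6. Hk2 was lower without overlap in clusters 1 (104 to 136 CPM against 156 to 175 CPM) and 6 (106 to 143 CPM against 160 to 202 CPM) and overlapped in cluster 9 (108 to 173 CPM against 163 to 171 CPM). These values are descriptive, since the cells were clustered on their expression, with the glycolysis genes left out of the clustering.

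**Figure D4:**
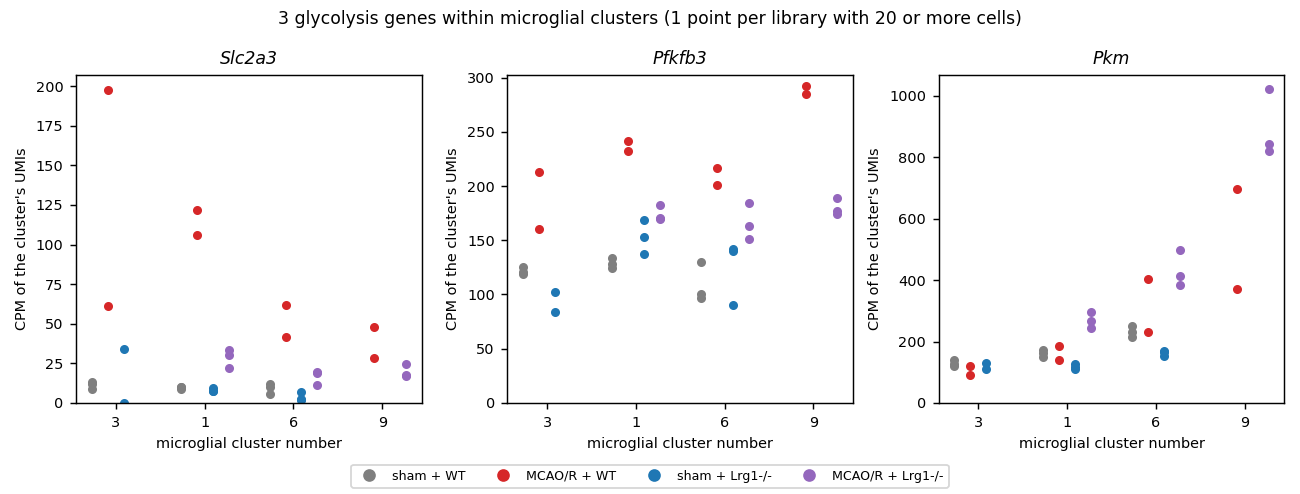
Slc2a3, Pfkfb3 and Pkm (y axes, UMIs per 1000000 UMIs of the cluster, CPM) within the microglial clusters 3, 1, 6 and 9 (x axis), with 1 point per library of at least 20 cells coloured by group. In clusters 1, 6 and 9 the MCAO/R + WT points of Slc2a3 and Pfkfb3 lie above all MCAO/R + Lrg1-/- points, while Pkm is highest in cluster 9 with 819 to 1023 CPM in MCAO/R + Lrg1-/-.

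Border-associated macrophages, the macrophages of the meninges and vessels, had a wide gap between the genotypes at the early steps. Pfkfb3 was at 69.9, 66.6 and 49.0 CPM in sham + WT and at 154 and 158 CPM in MCAO/R + WT, but at 53.4, 35.8 and 37.5 CPM in sham + Lrg1-/- and at 49.6, 51.2 and 33.6 CPM in MCAO/R + Lrg1-/-. It was thus high in both MCAO/R + WT libraries alone. After MCAO/R it was lower in Lrg1-/- with a log2 fold change of -1.75 ± 0.23 (adjusted p = 0.000309), and the change in WT was 1.33 ± 0.22 (adjusted p = 0.00146). Slc2a3 was at 9.32, 15.5 and 10.1 CPM in sham + WT, at 25.4 and 61.6 CPM in MCAO/R + WT, at 6.68, 7.82 and 8.03 CPM in sham + Lrg1-/- and at 6.40, 2.91 and 9.88 CPM in MCAO/R + Lrg1-/-. It had the log2 fold change farthest from 0 of the 10 genes in this cell type (-3.09 ± 0.49 between the genotypes after MCAO/R, adjusted p = 0.00101), on counts of only 3 to 109 UMIs per library. Without MCAO/R + WT replicate 2 this value was -2.31 (adjusted p = 0.0208), and the rise of Slc2a3 in WT (1.88 ± 0.39, adjusted p = 0.00769) was lost (1.13, adjusted p = 0.155).

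Hk2 in border-associated macrophages was also highest in MCAO/R + WT, with 71.5, 42.5 and 57.6 CPM in sham + WT and 127 and 120.3 CPM in MCAO/R + WT (log2 fold change 1.11 ± 0.22, adjusted p = 0.00603). The sham + Lrg1-/- libraries held 76.8, 105.1 and 72.3 CPM and the MCAO/R + Lrg1-/- libraries 70.4, 77.4 and 79.0 CPM, the latter below both MCAO/R + WT libraries (log2 fold change -0.71 ± 0.23, adjusted p = 0.0417), a call that was lost without MCAO/R + WT replicate 2 (-0.73, adjusted p = 0.123). The microglial markers in these sums ranged from 4066 to 5270 CPM in MCAO/R + WT and from 7522 to 7930 CPM in MCAO/R + Lrg1-/-, and their part in the levels of Slc2a3, Pfkfb3 and Hk2 was not tested. The later steps again went the other way. Pgk1 was at 35.7, 44.8 and 39.9 CPM in sham + WT, 85.4 and 39.0 CPM in MCAO/R + WT, 89.3, 61.5 and 66.9 CPM in sham + Lrg1-/- and 251, 186 and 162 CPM in MCAO/R + Lrg1-/-. Its level after MCAO/R was higher in Lrg1-/- by 1.66 ± 0.30 (adjusted p = 0.00215), and it was one of the genes whose call did not rest on MCAO/R + WT replicate 2 (1.24, adjusted p = 0.029).

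Pkm in these macrophages was at 413 and 172 CPM in MCAO/R + WT and at 751, 896 and 601 CPM in MCAO/R + Lrg1-/-, against 101 to 106 CPM and 136 to 225 CPM in the respective sham groups. Between the genotypes after MCAO/R its log2 fold change was 1.36 (adjusted p = 0.00785), and without MCAO/R + WT replicate 2 it was 0.88 (adjusted p = 0.0812). Ldha (1.48, adjusted p = 0.0041), Eno1 (1.39) and Aldoa (0.70, adjusted p = 0.0279) were higher as well, and their calls were also lost without that library. In all, 5 genes were higher and 3 lower between the genotypes after MCAO/R, where 19.4% of the 11425 genes tested in this cell type were called. The WT response to MCAO/R had 6 genes called, all higher (7.31% of all genes called), and the Lrg1-/- response 5, all higher (8.8% of all genes called). No glycolysis gene was called between the sham groups (3.39% of all genes called) or as an interaction (0.07% of all genes called).

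Endothelial cells, which form the blood-brain barrier and pass glucose to the brain, changed in both directions. Pfkfb3 was at 15.4, 16.0 and 16.1 CPM in sham + WT, 37.4 and 30.4 CPM in MCAO/R + WT, 20.9, 15.8 and 22.9 CPM in sham + Lrg1-/- and 19.5, 24.2 and 23.0 CPM in MCAO/R + Lrg1-/-. Both MCAO/R + WT libraries were above all others. The rise in WT (log2 fold change 1.10 ± 0.15, adjusted p = 0.000206), the lower level in Lrg1-/- after MCAO/R (-0.60 ± 0.15, adjusted p = 0.0121) and the interaction (-0.91 ± 0.21, adjusted p = 0.0416) were called. Microglial RNA would hold 4.07 to 4.92 CPM of Pfkfb3 in sham + WT and 11.6 to 15.7 CPM in MCAO/R + WT, below the measured levels, and its part in the rise was not tested. Eno1 went the other way, from 119, 125 and 140.2 CPM in sham + WT to 72.5 and 60.6 CPM in MCAO/R + WT, a fall without overlap (log2 fold change -0.94 ± 0.17, adjusted p = 0.00167). In Lrg1-/- it was at 94.5, 110.0 and 118 CPM in sham and at 132, 140.0 and 91.05 CPM after MCAO/R. It was higher in Lrg1-/- after MCAO/R (0.87 ± 0.17, adjusted p = 0.00286), and its interaction of 1.12 ± 0.22 (adjusted p = 0.0227) did not pass without MCAO/R + WT replicate 2 (adjusted p = 0.0992), without sham + Lrg1-/- replicates 1 or 2 or without sham + WT replicates 2 or 3. The interaction of Pfkfb3 was lost in 8 of the 11 fits that left out 1 library (adjusted p of 0.0508 to 0.121), all but those without MCAO/R + WT replicate 2, sham + Lrg1-/- replicate 2 and MCAO/R + Lrg1-/- replicate 5.

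The rise of the later steps in Lrg1-/- endothelial cells was led by Pkm, at 244, 279 and 313 CPM in sham and 397, 636 and 428 CPM after MCAO/R, while WT held 272 to 283 CPM in sham and 307 and 244 CPM after MCAO/R. Between the genotypes after MCAO/R the log2 fold change of Pkm was 0.82 (adjusted p = 0.00678). Pgk1 was at 91.4 and 63.4 CPM in MCAO/R + WT and at 123, 171 and 105 CPM in MCAO/R + Lrg1-/- (0.79, adjusted p = 0.00845), and Aldoa at 237 and 218 CPM against 315, 411 and 306 CPM (0.60, adjusted p = 0.0107). The groups of all 3 did not overlap, and their calls were lost without MCAO/R + WT replicate 2 (adjusted p = 0.0707, 0.0931 and 0.08). Ldha, at 328 and 289.5 CPM against 343, 536 and 300 CPM, was not called in any comparison in these cells.

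Hexokinase 1, the main hexokinase of endothelial cells, rose in Lrg1-/- after MCAO/R from 63.2, 58.2 and 62.8 CPM to 82.0, 106 and 88.9 CPM (log2 fold change of Hk1 0.60 ± 0.12, adjusted p = 0.00349). Hk2 was called between the sham groups, with 6.11, 7.09 and 6.91 CPM in Lrg1-/- against 3.39, 2.935 and 2.42 CPM in WT (1.21 ± 0.19, adjusted p = 0.00139). The microglial RNA in these sums would hold 10.8 to 13.8 CPM of Hk2 in sham + Lrg1-/- and 4.60 to 5.72 CPM in sham + WT, more than was measured. This call is therefore not read as a difference of endothelial expression, and the part of microglial RNA in it was not tested. Slc2a3, with 0.795 to 4.05 CPM on 5 to 92 UMIs, was called in the WT response (1.69 ± 0.44, adjusted p = 0.0149), but its unadjusted levels of 2.40 and 3.996 CPM in MCAO/R + WT were below the 3.65 and 5.24 CPM that microglial RNA would hold, and the call was lost without MCAO/R + WT replicate 2 (1.32, adjusted p = 0.113). It too is not read as a change of endothelial expression, and the part of microglial RNA in it was not tested. In the same comparison Pfkl fell (-0.40 ± 0.11, adjusted p = 0.0218). In the WT response 2 genes were higher and 2 lower (20.2% of the 16347 genes tested were called), and in the Lrg1-/- response 4 were higher (21.2% called). Between the genotypes 4 were higher and 1 lower after MCAO/R (25.6% called), 1 was higher in sham (16.3% called), and 1 was higher and 1 lower as an interaction (2.5% called).

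Across all 11 cell types the 10 genes gave 110 pairs of gene and cell type, all of which passed the filter on low counts. Between the genotypes after MCAO/R, 45 pairs were called, 37 higher and 8 lower in Lrg1-/-, where 16.2% of all 150490 pairs were called. As the genes were chosen with earlier results of these data known, the count beside this share is descriptive. All lower calls lay among the early steps, and the difference between the early and the later steps was not tested. Of the 55 pairs of Aldoa, Pgk1, Eno1, Pkm and Ldha, 33 were higher and 0 lower, and 54 had a log2 fold change above 0, with a median of 0.78. Of the 55 pairs of Slc2a3, Hk1, Hk2, Pfkl and Pfkfb3, 4 were higher, all of them Pfkl, and 8 were lower. The median of these 55 pairs was 0.09, and 33 had a log2 fold change above 0. The lower calls lay in microglial cells (3), border-associated macrophages (3), endothelial cells (1) and pericytes (1). The medians over all genes of a cell type lay close to 0, for example at 0.08 in microglial cells. Pkm and Eno1 were each higher in 8 cell types, Pgk1 in 7, Aldoa and Ldha in 5 and Pfkl in 4. Slc2a3 and Pfkfb3 were each lower in 3 and Hk2 in 2, and Hk1 was called in none. Choroid plexus epithelial cells, in which Aldoa, Pgk1, Eno1 and Pkm were highest, differed in number between the genotypes. They numbered 109 and 28 in the MCAO/R + WT libraries and 1443, 2057 and 1434 in the MCAO/R + Lrg1-/- libraries. In sham + WT they numbered 216, 184 and 144, and in sham + Lrg1-/- 3292, 1377 and 511. The part of free RNA of these cells in the later steps of other cell types was not tested.

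Much of this comparison rested on 1 library. Without MCAO/R + WT replicate 2, the number of called pairs between the genotypes after MCAO/R fell from 45 to 12, whereas without replicate 1 it was 35. The pairs that kept their call were Slc2a3 in microglial cells and border-associated macrophages, Pfkfb3 in microglial cells, border-associated macrophages and endothelial cells, Pgk1 in border-associated macrophages and vascular smooth muscle cells, Eno1 in endothelial cells and oligodendrocytes, and Pkm, Ldha and Pfkl in oligodendrocytes.

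In oligodendrocytes, which insulate axons, Eno1 and Ldha were higher in Lrg1-/- after MCAO/R without overlap. These cells came from clusters with medians of 2823, 12770 and 14480 UMIs per cell. The cluster of lowest median also held most of the red blood cell markers. The part of this mix in the oligodendrocyte levels was not tested. Eno1 was at 37.4 and 41.4 CPM in MCAO/R + WT and at 74.9, 73.3 and 73.6 CPM in MCAO/R + Lrg1-/- (log2 fold change 0.91 ± 0.12, adjusted p = 0.000287). Ldha was at 49.4 and 24.2 CPM against 83.7, 118 and 84.1 CPM (1.39 ± 0.26, adjusted p = 0.0021). Aldoa (0.37, adjusted p = 0.141) and Pgk1 (0.24, adjusted p = 0.268) lost their calls in these cells without MCAO/R + WT replicate 2. Ldha was also higher among the sham libraries of this cell type, with 38.3, 47.8 and 49.5 CPM in Lrg1-/- against 25.3, 24.9 and 20.6 CPM in WT (0.91 ± 0.25, adjusted p = 0.0346). In vascular smooth muscle cells, Pgk1 was at 82.9 and 68.8 CPM in MCAO/R + WT and at 127, 157 and 128 CPM in MCAO/R + Lrg1-/- (0.88 ± 0.15, adjusted p = 0.0016). In pericytes, the contractile cells of capillaries, Slc2a3 was at 56.8 and 66.5 CPM in MCAO/R + WT and at 61.7, 20.6 and 17.2 CPM in MCAO/R + Lrg1-/-, which overlapped, with a log2 fold change of -1.18 ± 0.34 (adjusted p = 0.0329) that was lost without MCAO/R + WT replicate 2 (-1.06, adjusted p = 0.166).

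The response of WT mice to MCAO/R had 17 of the 110 pairs called, 13 higher and 4 lower, where 9.55% of all pairs were called. Slc2a3 was called in 5 cell types, namely microglial cells, border-associated macrophages, astrocytes, oligodendrocytes and, below the estimated background, endothelial cells. Pfkfb3 was called in 3, namely microglial cells, border-associated macrophages and endothelial cells. In astrocytes, which supply lactate to neurons, Slc2a3 went from 6.41, 5.59 and 3.46 CPM to 18.7 and 22.9 CPM (log2 fold change 1.995 ± 0.37, adjusted p = 0.0213). Microglial RNA in these sums would hold 5.96 and 7.89 CPM of Slc2a3 in MCAO/R + WT, and in oligodendrocytes 3.24 and 3.997 CPM against 7.04 and 11.6 CPM measured without adjustment, so that the levels in both types were above it. Eno1 fell in endothelial cells, vascular smooth muscle cells and oligodendrocytes. Without MCAO/R + WT replicate 2, 9 of the 17 calls were kept. Those of Slc2a3 outside microglial cells, of Eno1 outside endothelial cells and of Aldoa and Pfkl in border-associated macrophages were lost. In all 16 pairs were then called, so that several were pairs not called with that library.

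In Lrg1-/- mice the response to MCAO/R had 19 pairs called, 18 higher and 1 lower (10.6% of all pairs), of which 16 were pairs of the later steps and all of those were higher. They lay in microglial cells (5), border-associated macrophages (5), endothelial cells (3), oligodendrocytes (2) and vascular smooth muscle cells (1). Among the sham groups 21 pairs were called, 17 higher and 4 lower in Lrg1-/- (13.4% of all pairs), with Ldha higher in 5 cell types. The higher pairs include Hk2 and Pfkfb3 in choroid plexus epithelial cells and Hk2 in endothelial cells, whose levels were below the estimated background and are not read as expression. Without sham + WT replicates 1, 2 or 3 the number of called pairs was 12, 11 and 12, and with cells thinned to 1000 UMIs it was 5. In T cells Ldha was at 208, 328 and 350.4 CPM in sham + Lrg1-/- against 135, 134 and 133 CPM in sham + WT (1.13 ± 0.23, adjusted p = 0.00409). Aldoa in neuroblasts and neurons was at 148, 96.2 and 177 CPM against 57.1, 68.7 and 44.9 CPM (1.30 ± 0.26, adjusted p = 0.0167). The interaction was called for 5 pairs, 2 higher and 3 lower (1.6% of all pairs), all in microglial or endothelial cells. Haemoglobin genes, measured as a sign of red blood cell RNA, were higher in Lrg1-/- in all 44 pairs of gene and cell type in both comparisons of the genotypes. Of 132 pairs of immediate early genes, 5 were higher and 47 lower in Lrg1-/- after MCAO/R, 17 were higher and 33 lower between the sham groups, 3 were higher and 14 lower in the WT response, and 1 was higher and 38 lower in the Lrg1-/- response. With haemoglobin UMIs left out of the sums, the 45 and 21 calls between the genotypes after MCAO/R and in sham were kept. Other RNA of red blood cells stayed in these sums, and its part was not tested. The part of the immediate early genes was not tested.

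**Figure D5:**
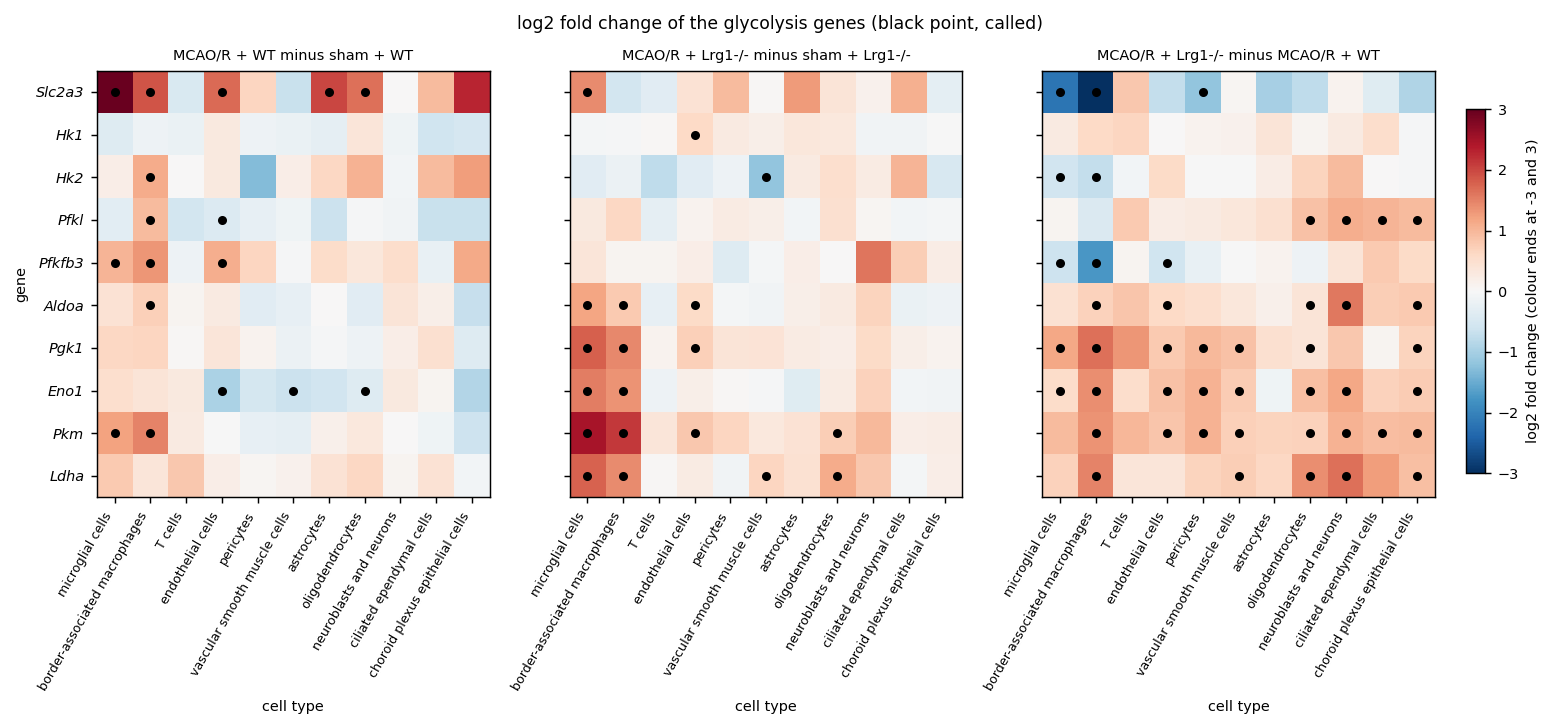
Log2 fold changes of the 10 glycolysis genes (rows) in 11 cell types (columns) for the response to MCAO/R in WT, the response in Lrg1-/- and the difference of the genotypes after MCAO/R, with colour from -3 to 3 and a black point on each called pair. In the third panel the 33 called pairs of the 5 lower rows are all red, whereas the called pairs of Slc2a3, Hk2 and Pfkfb3 are all blue.

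The remaining genes of the pathway, a list of 18 that holds the other transporters and isoforms, gave 188 tested pairs. Calls with 1 library left out were recorded for the members only. It is therefore not known which calls of this list, or of the hypoxia list below, rest on MCAO/R + WT replicate 2. Between the genotypes after MCAO/R, 52 of these were higher and 7 lower in Lrg1-/-, with a median log2 fold change of 0.41 (16.2% of all pairs were called). In the WT response 13 were higher and 16 lower (9.55% of all pairs), and in the Lrg1-/- response 27 were higher and 6 lower (10.6%). Between the sham groups 30 were higher and 6 lower (13.4%), and as an interaction 9 were higher and 3 lower (1.6%). The medians of these 4 comparisons were 0.03, 0.18, 0.16 and 0.19 on the log2 scale. Slc2a1, the barrier glucose transporter GLUT1, was at 1595, 1599 and 1621 CPM in endothelial cells of sham + WT, 4426 and 5604 CPM in MCAO/R + WT, 1280.4, 1359 and 1527 CPM in sham + Lrg1-/- and 2221, 2788 and 2510 CPM in MCAO/R + Lrg1-/-. Both MCAO/R + WT libraries exceeded all others. Its log2 fold change was 1.64 ± 0.14 in the WT response (adjusted p = 7.22e-06), 0.85 ± 0.13 in the Lrg1-/- response (adjusted p = 0.000823) and -1.0004 ± 0.14 between the genotypes after MCAO/R (adjusted p = 0.000412), and the interaction was -0.79 ± 0.19 (adjusted p = 0.0492). In microglial cells Slc2a1 was likewise lower after MCAO/R in Lrg1-/- (-0.91 ± 0.26, adjusted p = 0.0277). The part of endothelial RNA in the microglial levels of Slc2a1 was not tested.

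Slc16a3, which exports lactate, was higher in Lrg1-/- after MCAO/R in both cell types. In microglial cells it was at 30.2 and 16.2 CPM in MCAO/R + WT and at 60.8, 70.2 and 53.8 CPM in MCAO/R + Lrg1-/- (log2 fold change 1.41 ± 0.23, adjusted p = 0.00133), and in endothelial cells the log2 fold change was 1.70 ± 0.25 (adjusted p = 0.000527). Tpi1, which interconverts the triose phosphates, was at 66.3 and 44.5 CPM against 117, 151 and 124 CPM in microglial cells (1.24 ± 0.20, adjusted p = 0.00118, interaction 1.61 ± 0.27). Gapdh, the next enzyme, was at 811 and 449 CPM against 1000.3, 1193 and 1011 CPM (0.76 ± 0.21, adjusted p = 0.0217), although it was lower in Lrg1-/- among the sham libraries (-0.80 ± 0.19, adjusted p = 0.00832). Pgam1 (0.80), Pfkp (1.18) and Bpgm (1.86) were also higher in microglial cells, and in endothelial cells Bpgm (1.33), Tpi1 (0.78), Ldhb (1.61), Pgam1 (0.65), Pfkp (0.57), Eno2 (1.54), Hk3 (1.17) and Gapdh (0.65) were.

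The other calls of this list in microglial cells went in both directions. In the WT response Gpi1, which isomerizes glucose 6-phosphate (log2 fold change 0.95), Tigar, a phosphatase that opposes phosphofructokinase (1.37), and Slc2a1 (0.92) rose, while Ldhb (-1.06) and the monocarboxylate transporter Slc16a7 (-0.83) fell. In the Lrg1-/- response Gapdh (2.14), Tigar (1.86), Tpi1 (1.62), Pgam1 (1.52), Slc16a3 (1.39), Gpi1 (1.10) and Slc16a1 (0.71) rose and Slc16a7 fell (-1.16). Between the sham groups Bpgm (1.67) and Pfkp (1.34) were higher and Gapdh and Ldhb (-0.52) lower in Lrg1-/-. The interaction was also called for Gapdh (1.56), Slc16a3 (1.38) and Ldhb (0.78).

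In endothelial cells the WT response had Slc2a1, Slc16a3 (0.95) and Gapdh (0.94) higher and Pfkp (-0.55) lower. The Lrg1-/- response had Slc16a3 (1.87), Gapdh (1.32), Hk3 (1.31), Slc2a1, Bpgm (0.73), Pgam1 (0.44) and Tpi1 (0.39) higher. Among the sham groups Eno2 (2.74), Ldhb (1.44) and Bpgm (0.47) were higher in Lrg1-/-, and the interaction was called for Bpgm (0.86), Tpi1 (0.67) and Slc2a1.

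Bpgm makes the haemoglobin effector 2,3-bisphosphoglycerate and is known from red blood cells. It was at 13.7, 12.1 and 9.80 CPM in microglial cells of sham + WT and at 34.2, 21.7 and 61.0 CPM in sham + Lrg1-/-, and haemoglobin RNA in the same sums was at 17.7 to 22.0 CPM and 16769 to 32936 CPM, respectively. Haemoglobin genes were also higher in Lrg1-/- in endothelial cells in both comparisons of the genotypes. The part of free red blood cell RNA in the level of Bpgm was not tested in either cell type. Nor was the part of RNA of other cell types in the endothelial levels of Hk3 and Eno2.

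A list of hypoxia-responsive genes outside glycolysis had calls in both directions in every comparison. Of its 141 tested pairs, 7 were higher and 13 lower in Lrg1-/- after MCAO/R, with a median log2 fold change of 0.12, opposite in sign to the balance of calls (16.2% of all pairs were called). In the WT response 17 were higher and 6 lower (9.55% of all pairs), and in the Lrg1-/- response 11 were higher and 5 lower (10.6%). Between the sham groups 10 were higher and 11 lower (13.4%), and as an interaction 1 was higher and 5 lower (1.6%). The median log2 fold changes of these 4 comparisons were 0.17, 0.19, 0.09 and -0.0016. Ddit4, an inhibitor of growth signalling induced by stress and hypoxia, had the same order of groups as Slc2a3 in microglial cells. It was at 6.75, 4.38 and 4.52 CPM in sham + WT, 43.0 and 86.1 CPM in MCAO/R + WT, 1.95, 1.90 and 4.17 CPM in sham + Lrg1-/- and 6.501, 7.42 and 12.9 CPM in MCAO/R + Lrg1-/-. Its log2 fold change between the genotypes after MCAO/R was -2.80 ± 0.33 (adjusted p = 0.00015). Hilpda, a lipid droplet protein, rose in both responses (2.25 ± 0.52, adjusted p = 0.00741 and 2.97 ± 0.58, adjusted p = 0.00137), and so did Ero1l (0.74 and 1.48). P4ha1, a collagen prolyl hydroxylase (-0.88, adjusted p = 0.000337), and Pdk1, an inhibitor of pyruvate oxidation (-0.88, adjusted p = 0.00166), fell in the WT response. Bnip3 rose (0.76) and Pdk1 fell (-0.44) in the Lrg1-/- response. Among the sham groups P4ha1 (-0.81), Bnip3 (-0.73), Ero1l (-0.47) and Pdk1 (-0.44) were lower in Lrg1-/- and Hif1a (0.48) was higher, and P4ha1 was the list's called interaction in these cells (1.03 ± 0.17, adjusted p = 0.00691). Hif1a itself was higher in Lrg1-/- microglial cells after MCAO/R (0.42 ± 0.14, adjusted p = 0.045).

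In endothelial cells Ndrg1, a stress-response gene, was at 528 and 629.7 CPM in MCAO/R + WT and at 291, 292 and 302 CPM in MCAO/R + Lrg1-/- (log2 fold change -0.97 ± 0.10, adjusted p = 6.01e-05, interaction -0.84 ± 0.13). Ddit4 (-0.97), Bnip3 (-0.69) and Epas1 (-0.61) were also lower there, while Ankrd37 was higher (1.49). In the WT response Ddit4 (1.57), Bnip3 (0.99), Adm (0.91) and Hif1a (0.45) rose and Ankrd37 (-0.99) fell, and in the Lrg1-/- response Ddit4 (0.93) and Hif1a (0.63) rose while Ndrg1 (-0.54) and Epas1 (-0.37) fell. Among the sham groups Ankrd37 (0.84) and Bnip3 (0.57) were higher in Lrg1-/-, and the interaction of Bnip3 was -1.26.

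The members were also compared with each other and with all genes by their levels over the 121 pairs of library and cell type, which share libraries and cell types, so that the correlations are descriptive. Among the members, Pgk1 and Pkm (r = 0.80) and Hk2 and Pfkfb3 (r = 0.76) were most alike, whereas Hk1 ran against Hk2 (r = -0.66) and Pfkfb3 (r = -0.61). Of 10589 genes with a mean of at least 10 CPM, those most like the mean profile of the members were Ccdc107 (r = 0.80), Rnh1 (r = 0.77), Tspo (r = 0.76), Acaa2 (r = 0.74) and Slc25a3 (r = 0.73).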

How the data were processed

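Brain cells of 11 mice were captured with a 10x Genomics 3′ kit. The files deposited by the authors hold unnormalized UMI counts for each gene in each barcode, made with Cell Ranger 7.0.1 per the file headers. The submitters' processing notes name mm10 and STAR. Coordinates are from GENCODE M21 (GRCm38). The members and gene lists were chosen with earlier results of these data known.

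Cells with over 500 genes, over 1000 UMIs and under 25% mitochondrial UMIs were kept, and the 6% with the highest simulated doublet scores were removed per library. Custom code took 2000 variable genes without the glycolysis lists and 15 components. A graph of 3 neighbours per library was built with umap-learn 0.5.12, and Leiden clustering (resolution 1) was run with leidenalg 0.10.2. Clusters were named from 3 or more markers at 3 times the level elsewhere in 15% of cells, with at least 50% of a type's markers and a lead of 20 percentage points over the next type (or 3 of its markers among the 10 leading genes, with none of the next type's), a rule set after the clusters were seen. Counts were summed per library and cell type (at least 20 cells) and fitted over the 4 groups with edgeR 4.0.16 (quasi-likelihood, TMM, filterByExpr, Benjamini-Hochberg over all genes of a cell type). Calls needed an adjusted p under 0.05 and a change of more than 0.25 on the natural-log scale. Where groups are said not to overlap, the share of all genes without overlap was not counted. The fit was tested on simulated data. The microglial RNA in the sums of another cell type was estimated, after the data were seen, as its summed microglial marker level over that of the microglial cells of the same library. All members were named, of the other glycolysis genes those called in microglial or endothelial cells (at most 10 a comparison), of the hypoxia list at most 5, and the 5 genes most like the members.

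Alternatives were DESeq2 1.42.0, other size factors, no filter, the replicate number as a block, doublets kept, a limit of 10% mitochondrial UMIs, cells thinned to 1000 UMIs, Leiden resolution 0.3, cells assigned by marker UMIs, haemoglobin left out and each library left out. Same-numbered libraries did not deviate together (correlations of -0.0554 to 0.0264). Nothing in the labels states which mice share a preparation day. Intervals of counting error are not given, since the spread between mice was used.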

Additional observations from a re-analysis of the deposited data

Results flagged for a closer look

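The responses to MCAO/R differed between WT and Lrg1-/- in an interaction test (edgeR's quasi-likelihood test, adjusted over all genes of the cell type) for 5 of the 110 pairs of glycolysis gene and cell type. In microglial cells the interaction was -1.56 on the log2 scale for Slc2a3, -0.67 for Pfkfb3 and 1.04 for Eno1. In endothelial cells it was -0.91 for Pfkfb3 and 1.12 for Eno1. A negative value means that the response was smaller in Lrg1-/-. With each of the 11 libraries left out in turn, Slc2a3 kept its call in every fit (adjusted p of 0.000419 to 0.0354). In microglial cells the call of Pfkfb3 was lost in 5 fits and that of Eno1 in 7, and in endothelial cells that of Pfkfb3 in 8 and that of Eno1 in 5, with adjusted p up to 0.121. Without sham + Lrg1-/- replicate 1, sham + WT replicate 2 or sham + WT replicate 3 a single pair was still called. Groups of 2 or 3 libraries are too small to test single libraries as outliers.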

How the results depend on the processing

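The number of called pairs of glycolysis gene and cell type moved by more than 1.5 times under some settings. For the WT response (17) it was 8 with the replicate number as a block, 9 with cells thinned to 1000 UMIs and 11 at Leiden resolution 0.3, and leaving out 1 library gave 11 to 19. The Lrg1-/- response (19) had 11 at resolution 0.3 and 14 to 23 with 1 library left out. The genotypes after MCAO/R (45) had 25 thinned, 26 at resolution 0.3 and 12 to 50 with 1 library left out, the lowest without MCAO/R + WT replicate 2. The sham comparison (21) had 9 with the block and 5 thinned, and 11 to 22 with 1 library left out. The interaction (5) had 13 with DESeq2, 16 without the filter, 1 with the block, 11 with doublets kept, 2 thinned, and 1 to 9 with 1 library left out. Thinned sums left 85 tested pairs and resolution 0.3 named 8 of the cell types (80 pairs), so fewer pairs could be called there. The block gave 17 for the Lrg1-/- response and 33 for the genotypes after MCAO/R, but replicate numbers do not pair these mice.

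The Hk2 share, in percentage points, kept its sign in microglial cells after MCAO/R between the genotypes (-5.29), with -8.214 at the 10% mitochondrial limit (where a cluster of 3444 cells left the microglial cells and one of 6325 joined the endothelial cells) and -6.72 to -4.26 with 1 library left out. The WT response in these cells had 2.88 to 4.19 and the Lrg1-/- response (-2.11) -4.085 at the 10% limit and -3.55 to -1.08 with 1 library left out. Differences near 0 turned sign, namely microglial sham (0.36) with -0.2987 at the 10% limit, -1.045 with cells assigned by marker UMIs and -0.2839 to 1.584 with 1 library left out (-0.2839, -0.2198 and -0.01791 below 0), and the endothelial WT response (0.0647) with -1.573 (doublets kept), -1.982 (10% limit), -1.675 (resolution 0.3), -0.6421 (marker UMIs) and -0.5998 to 0.7292 with 1 library left out (-0.5998 and -0.2658 below 0). The endothelial Lrg1-/- response (-4.32) was -1.44, -6.814 and -5.423 at the 10% limit, at resolution 0.3 and by marker UMIs, and -4.85 to -3.82 with 1 library left out. The endothelial difference after MCAO/R (1.75) was 0.06527 with doublets kept, 12.01 at the 10% limit, 6.225 at resolution 0.3, 4.167 by marker UMIs and 1.09 to 2.41 with 1 library left out, and that in sham (6.14) was 2.56, 11.5, 11.4 and 8.948 in the same order and 5.64 to 6.66. The causes were not tested. Of 2205 single values of called genes, 1806 kept direction and call, 398 lost the call and 1 turned sign (Ldha, choroid plexus epithelial cells, sham, thinned, -0.0783). Genes of a few UMIs, such as endothelial Slc2a3, are limited by depth.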
